A study of Mus musculus with 4 samples.

Results

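The 10 genes described here are 3 Notch receptors (Notch1, Notch2 and Notch3), 2 of their ligands (Jag1 and Jag2), the DNA-binding partner Rbpj and 4 target genes (Hes1, Hey1, Hey2 and Heyl). They were taken by symbol, through the Ensembl identifier of each row, and all 10 stood among the 32948 genes of the table. Their identifiers are ENSMUSG00000026923 (Notch1), ENSMUSG00000027878 (Notch2), ENSMUSG00000038146 (Notch3), ENSMUSG00000027276 (Jag1), ENSMUSG00000002799 (Jag2), ENSMUSG00000039191 (Rbpj), ENSMUSG00000022528 (Hes1), ENSMUSG00000040289 (Hey1), ENSMUSG00000019789 (Hey2) and ENSMUSG00000032744 (Heyl).

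Polyadenylated RNA was sequenced from cells of the mouse ascending aorta and arch. All animals carried Wnt1-Cre and the Rosa26-mTmG reporter, in which a cell is red (tdTomato) until Cre acts and green (GFP) afterwards, together with its descendants. There were 4 libraries: GFP and tdTomato cells of females, and GFP and tdTomato cells of males. Both female libraries came from 1 sample and both male libraries from a pool of 2 samples. Ages were not given in the labels. Cre under the Wnt1 promoter acts in the neural crest, which supplies part of the arch's smooth muscle, so the colours compare cells of that lineage with all other cells sorted from that suspension. The labels call all cells vascular smooth muscle cells, whereas the sort used the fluorescent proteins alone. Each combination of sex and colour is therefore 1 library, and the 2 suspensions are the only replicates of a colour.

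Notch receptors are membrane proteins that are activated by ligands on a neighbouring cell, among them the Jagged and Delta-like proteins. Binding triggers cleavage of the receptor, whose intracellular part enters the nucleus and joins Rbpj to switch on target genes such as those of the Hes and Hey families. In arteries, Notch3 is the receptor best known from smooth muscle, Notch1 and Notch4 are best known from endothelium, and Jag1 signalling is needed for neural crest cells to form the smooth muscle of the arch.

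Library totals lay between 10094326 and 13911281 estimated counts. Male GFP stood apart, with 9517 genes at 10 counts or more, against 12008 in female GFP and 15669 to 16227 in the tdTomato libraries. Levels are CPM, a count as a share of its library, after TMM scaling (edgeR's trimmed mean of M values). The worth of 3 counts, taken as the detection floor, was 0.24 CPM in female GFP against 0.203 CPM in female tdTomato, and 0.323 CPM in male GFP against 0.218 CPM in male tdTomato. All 10 smooth muscle markers listed were detected in every library, with summed levels of 21759 CPM in female GFP against 16460 CPM in female tdTomato, and 19110 CPM in male GFP against 15896 CPM in male tdTomato. Some genes that were well detected in a tdTomato library were at 0 counts in its GFP partner. Whether their RNA was missed or absent from the cells was not tested. Of genes at 25 to 50 CPM in tdTomato, 23.2% were at 0 counts in male GFP and 8.33% in female GFP. In the opposite direction the share at 0 stayed at 7.43% or less in each class of level from 5 CPM up. Of 10 housekeeping genes, 3 were at least 2-fold lower in GFP cells of the male pair, where 50% of the 15055 genes tested were. None was in the female pair, where 37.8% were. The 10 genes had median log2 ratios of -0.58 in the male pair and 0.36 in the female pair. The medians of all genes tested were -1.0 and -0.27. Eef1a1, a translation factor and one of the 3, had 3034 CPM in female GFP against 2271 CPM in female tdTomato, and 421 CPM in male GFP against 1880.1 CPM in male tdTomato.

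**Figure D1:**
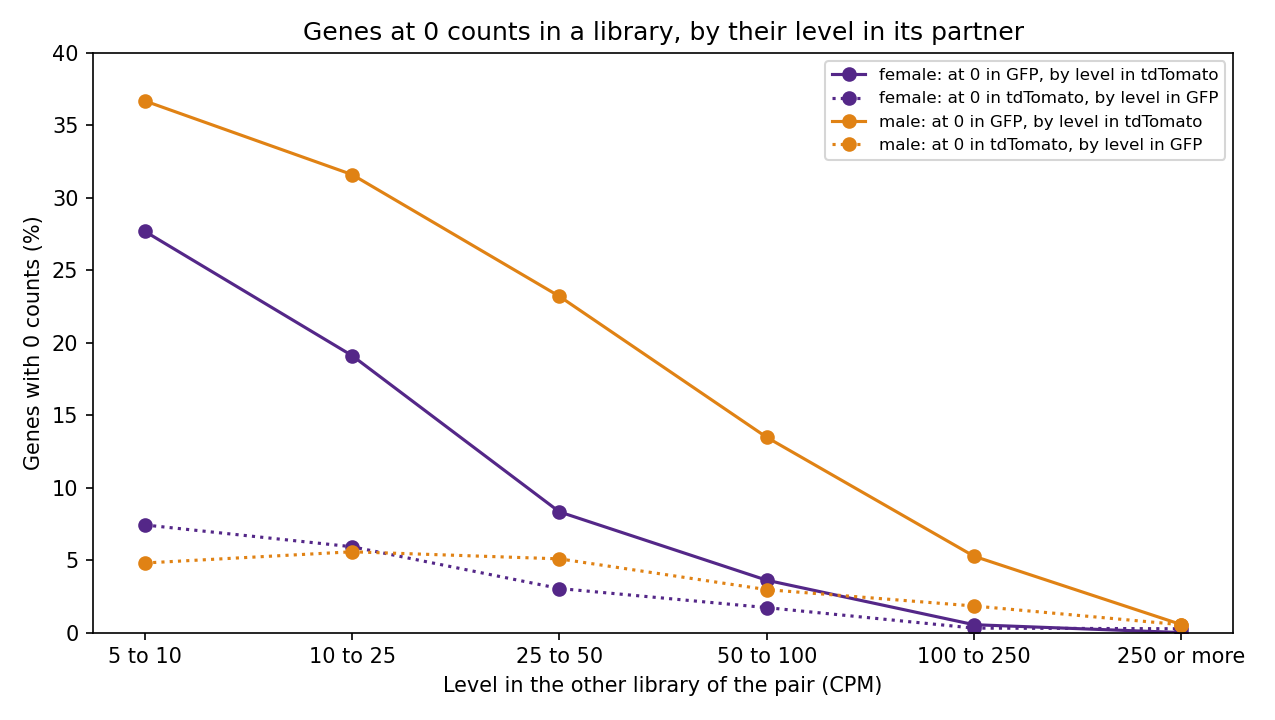
Share of genes with 0 counts in one library of a suspension (y, %), by their level in the other library (x, classes of CPM). Solid lines are genes at 0 in GFP by their tdTomato level and dotted lines the opposite; at 10 to 25 CPM the solid male line is at 31.6% and the solid female line at 19.1%.

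RefSeq start-site windows (250 bases before to 50 after the start, GRCm38.p6) were matched for 7 of the 10 genes, in 8 windows, and those of Hey2, Notch3 and Jag1 are shown. No window was matched for Hes1, Hey1 and Heyl, so Hey2 was the only target gene searched. Hey2 is shown because it alone of the 7 genes held GTGGGAA, the core sequence that Rbpj is known to bind. Notch3 and Jag1 are shown as the receptor and the ligand with the largest differences between the colours. Capitals mark GTGGGAA, which reads TTCCCAC where it lies on the opposite strand. The Hey2 window is chr10:30842734-30843033, the Notch3 window chr17:32166841-32167140 and the Jag1 window chr2:137116471-137116770, all on the minus strand and printed 5′ to 3′ along the gene.
Hey2: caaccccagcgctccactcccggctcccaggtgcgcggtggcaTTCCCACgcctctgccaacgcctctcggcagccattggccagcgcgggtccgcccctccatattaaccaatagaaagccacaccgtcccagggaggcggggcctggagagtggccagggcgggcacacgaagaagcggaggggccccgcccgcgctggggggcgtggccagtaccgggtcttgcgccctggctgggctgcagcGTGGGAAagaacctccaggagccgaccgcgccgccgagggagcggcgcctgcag
Notch3: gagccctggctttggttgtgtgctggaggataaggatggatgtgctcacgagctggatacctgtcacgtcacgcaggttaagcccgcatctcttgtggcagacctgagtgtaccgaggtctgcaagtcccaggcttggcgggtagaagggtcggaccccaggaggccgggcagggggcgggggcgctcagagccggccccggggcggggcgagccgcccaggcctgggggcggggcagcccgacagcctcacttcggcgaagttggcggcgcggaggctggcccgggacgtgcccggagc
Jag1: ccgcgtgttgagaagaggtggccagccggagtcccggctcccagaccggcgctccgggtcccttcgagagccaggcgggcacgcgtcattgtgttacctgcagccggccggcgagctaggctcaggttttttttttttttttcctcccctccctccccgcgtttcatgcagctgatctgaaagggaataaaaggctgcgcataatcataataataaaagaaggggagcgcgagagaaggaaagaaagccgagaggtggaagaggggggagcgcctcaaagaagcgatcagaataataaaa
Of 32851 windows of this length in the table, 6.38% held GTGGGAA on either strand. The match on the opposite strand began 207 bases before the start site of Hey2 and the other 4 bases before it. The shorter TGGGAA, which lies inside GTGGGAA, stood in the windows of Hey2 and Rbpj and in 25.6% of all windows. CACGTG, the E-box bound by Hes and Hey proteins, stood in none of the 8 windows and in 7.15% of all. CACNAG, the N-box of Hes proteins, stood in those of Notch1, Notch2 and Notch3 and in 42.5% of all. These matches describe letters and were not tested for binding.

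In both suspensions GFP cells held less Notch2 and no detected Notch3 RNA. Notch2 is a broadly expressed receptor. It had 8.96 CPM in female GFP against 54.3 CPM in female tdTomato, and 11.5 CPM in male GFP against 107.9 CPM in male tdTomato. Both GFP values lay below both tdTomato values. The level was 6.06-fold lower in GFP cells of the female pair (4.97 to 7.45, a 95% interval for counting error) and 9.38-fold lower in the male pair (7.70 to 11.5). The mean log2 ratio of the 2 pairs was -2.90 ± 0.45 (SD, n = 2 pairs). In edgeR's quasi-likelihood test with the suspension as a block the log2 fold change was -2.91, with an adjusted p of 0.972 (unadjusted 0.179). In bulk libraries, fewer cells of a type and less RNA per cell cannot be told apart.

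Notch3, the receptor of mural cells, had 0 counts in both GFP libraries. It had 7.77 CPM (115 counts) in female tdTomato and 32.6 CPM (449 counts) in male tdTomato. Of all genes at 5 to 10 CPM in female tdTomato, 27.7% were at 0 in female GFP. Measured against 3 counts in the GFP library, it was at least 32.4-fold lower in female GFP and at least 101-fold lower in male GFP. The edgeR test gave an adjusted p of 0.577 (unadjusted 0.0497). Under DESeq2 on the same design, Notch3 was the only one of the genes called, with an adjusted p of 0.0093, and its adjusted p ran from 0.0093 to 0.729 over the settings tried. Gm17276, annotated on the opposite strand of Notch3, had 78.9, 34.7, 34.5 and 13.3 estimated counts in female GFP and tdTomato and then in male GFP and tdTomato. The library kit does not mark strand, and reads of the overlap cannot be told apart. Notch3 is itself 1 of the 7 pericyte markers listed. Of these it alone was at least 2-fold lower in GFP cells of both pairs, where 22.9% of tested genes were.

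Notch1 ran the other way, on few counts. It had 11.1 CPM (139 counts) in female GFP and 2.84 CPM (42 counts) in female tdTomato. The male libraries held 5 counts in GFP (0.538 CPM) and 0 in tdTomato. Its level was 3.92-fold higher in GFP cells of the female pair (2.76 to 5.67). In the male pair it was 2.47-fold higher with tdTomato set at 3 counts, which leaves out the counting error of the 5 counts. Male GFP still lay below female tdTomato, so the colours overlapped. The edgeR adjusted p was 1. The fitted log2 fold change was 3.07 with the block and 2.03 with no block, and -1.30 with no block when female GFP was also left out. Notch1 overlaps 0610009E02Rik and Gm13568 on the opposite strand, and some of its counts were estimated fractions, so its level is uncertain. The summed level of Schwann cell markers was also higher in GFP. It was 260.1 CPM in female GFP against 8.31 CPM in female tdTomato, and 110.4 CPM in male GFP against 18.5 CPM in male tdTomato. These sums rest on few genes. Of 7 such markers in the table, 2 passed the filter and 3 were at 0 counts in female GFP. Only 1 was at least 2-fold higher in GFP cells of both pairs (5.17% of tested genes), and 1 was lower in the male pair. The part of Schwann cells in the Notch1 difference was not tested.

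The make-up of the receptor family thus differed between libraries. Per kilobase of the longest annotated transcript, and with Notch4 added, Notch2 made up 42.1% of the summed receptor level in female GFP against 70.3% in female tdTomato, and 95.1% in male GFP against 71.6% in male tdTomato. Notch1 made up 57.9% in female GFP and 4.07% in female tdTomato, against 4.92% in male GFP and none in male tdTomato. Counted without lengths, Notch1 had 55.4% of 251 receptor counts in female GFP (95% exact binomial interval 49.0 to 61.6) and 4.0% of 1050 in female tdTomato (2.90 to 5.37). The male GFP library held only 112 receptor counts, of which Notch1 had 4.46% (1.47 to 10.1). Notch3 had 0 counts in both GFP libraries, and 3 counts, the floor used here, would be 1.20% of the receptor counts of female GFP and 2.68% of those of male GFP (upper ends of the exact binomial interval 1.46% and 3.24%). These shares depend on the transcript length used. With the median transcript, Notch3 rather than Notch2 led in male tdTomato, at 72.2% against 27.6%, and in female tdTomato, at 30.0% against 24.3%. Notch1 then reached 95% in female GFP.

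**Figure D2:**
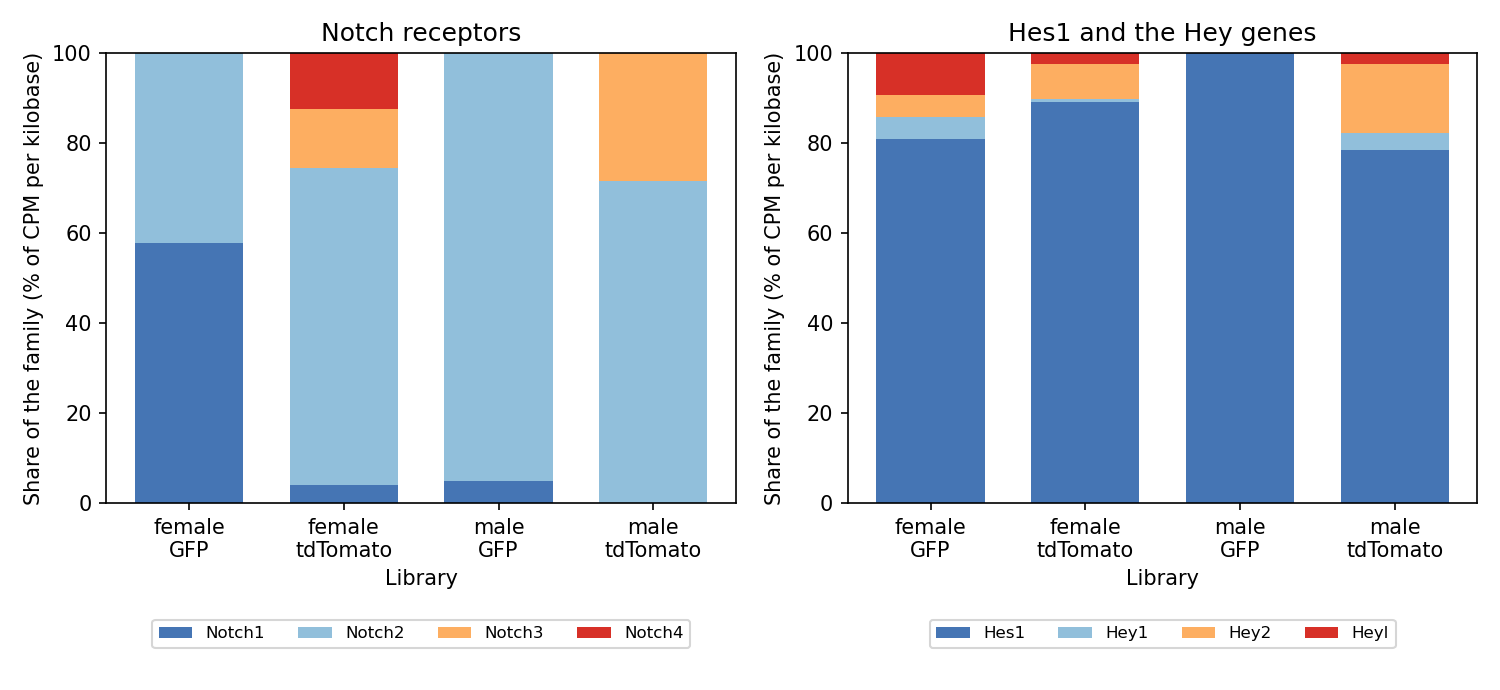
Share of each gene in the summed level of its family (y, % of CPM per kilobase of the longest transcript) in the 4 libraries (x), for the receptors with Notch4 (left) and for Hes1 and the Hey genes (right). Notch1 takes 57.9% of the receptors in female GFP and at most 4.92% elsewhere; Hes1 takes 78.6% to 99.9% of the targets.

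Markers of endothelium, a cell type that carries Notch receptors itself, were low in the same libraries as Notch2 and Notch3. Of 12 endothelial markers, 11 (all but Flt1) were at least 2-fold lower in GFP cells of both pairs, where 22.9% of tested genes were. The 12 summed to 64.8 CPM in female GFP against 470 CPM in female tdTomato. In the male pair the sums were 58.9 CPM in GFP and 299 CPM in tdTomato. Kdr, Egfl7 and Robo4 had 0 counts in both GFP libraries. Ptprb, a phosphatase of endothelial cells, had 0.16 CPM in female GFP against 173 CPM in female tdTomato, and 0 counts in male GFP against 127 CPM in male tdTomato. Macrophage markers summed to 6.64 CPM in female GFP against 22.4 CPM in female tdTomato, and 0.54 CPM in male GFP against 151 CPM in male tdTomato. The part of these cells in the receptor differences was not tested.

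Jag1, the Jagged ligand of arterial cells, differed between the colours in opposite directions in the 2 suspensions. It had 189.5 CPM (2369 counts) in female GFP and 59.0 CPM (873 counts) in female tdTomato. Male GFP had 0 counts, against 52.5 CPM (722 counts) in male tdTomato. The tdTomato libraries lay close together, while the GFP libraries were the highest and the lowest of the 4. The level was 3.21-fold higher in GFP cells of the female pair (2.97 to 3.48), whereas in the male pair it was at least 163-fold lower. Of all genes at 50 to 100 CPM in male tdTomato, 13.5% were at 0 in male GFP. Jag2, another Jagged ligand, was near the floor, with 4, 15, 0 and 7 counts in female GFP and tdTomato and then in male GFP and tdTomato. It was 3.17-fold lower in female GFP (1.01 to 13.1) and at least 1.58-fold lower in male GFP, and it alone of the 10 genes did not pass the filter on low counts.

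Rbpj, the nuclear partner that all Notch receptors share, was the most even of the genes. It had 86.5 CPM in female GFP against 82.0 CPM in female tdTomato, and 80.7 CPM in male GFP against 109.6 CPM in male tdTomato. The level was 1.05-fold higher in GFP cells of the female pair (0.97 to 1.15) and 1.36-fold lower in the male pair (1.24 to 1.48), so the colours overlapped. With library totals in place of TMM factors the female ratio changed sign (log2 of -0.15 in place of 0.08). The edgeR log2 fold change was -0.18 (adjusted p of 1). With no block it was -0.20, and 0.05 when male tdTomato was also left out. The male GFP library, in which 5 of the 10 genes were at 0, thus held 750 counts of Rbpj. The annotation names the processed copies Rbpj-ps1 and Rbpj-ps3 elsewhere in the genome, with which reads could be shared.

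Hes1, a transcriptional repressor and common Notch target, was also detected in every library. It had 364 CPM in female GFP against 419 CPM in female tdTomato, and 190.3 CPM in male GFP against 307 CPM in male tdTomato. Its level was 1.15-fold lower in GFP cells of the female pair (1.11 to 1.20) and 1.61-fold lower in the male pair (1.53 to 1.71), and the colours overlapped. The edgeR log2 fold change was -0.45 (adjusted p of 1). With no block it was -0.39, and 0.03 when male GFP was also left out. Per kilobase of the longest transcript Hes1 had the highest level of the 10 genes in every library, at 248, 285, 129.7 and 209 CPM per kilobase in female GFP and tdTomato and then in male GFP and tdTomato. It kept that place when the median transcript was used.

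The 3 Hey genes encode repressors related to Hes1, and of these Heyl and Hey1 varied as Jag1 did. Heyl, known from vascular smooth muscle, had 128.6 CPM (1608 counts) in female GFP against 34.6 CPM (512) in female tdTomato, and 0 counts in male GFP against 29.6 CPM (408) in male tdTomato. It was 3.72-fold higher in female GFP than in female tdTomato (3.36 to 4.12) and at least 91.9-fold below male tdTomato in male GFP. Hey1 had 36.2 CPM (452 counts) in female GFP against 5.07 CPM (75) in female tdTomato, and 0 counts in male GFP against 23.9 CPM (329) in male tdTomato. It was 7.14-fold higher in GFP cells of the female pair (5.58 to 9.24), whereas in the male pair it was at least 74.1-fold lower. For both genes female GFP was the highest library and male GFP the lowest, as for Jag1. Of all genes at 10 to 25 CPM in male tdTomato, the class of Hey1, 31.6% were at 0 in male GFP, and of those at 25 to 50 CPM, the class of Heyl and Notch3, 23.2% were.

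Hey2, best known from arterial endothelium and smooth muscle, had 38.0 CPM (475 counts) in female GFP and 63.6 CPM (942) in female tdTomato. In the male libraries it had 3 counts in GFP and 104 CPM (1429 counts) in tdTomato. Both GFP libraries were below both tdTomato libraries. Its level was 1.67-fold lower in female GFP (1.5 to 1.87) and 322-fold lower in male GFP, where 3 counts leave an interval of 110 to 1563. The edgeR log2 fold change was -4.40 (adjusted p of 1). The start-site window of Hey2, shown above, was the one with GTGGGAA on both strands. It was also the only window matched for a target gene, so Hes1, Hey1 and Heyl were not searched.

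**Figure D3:**
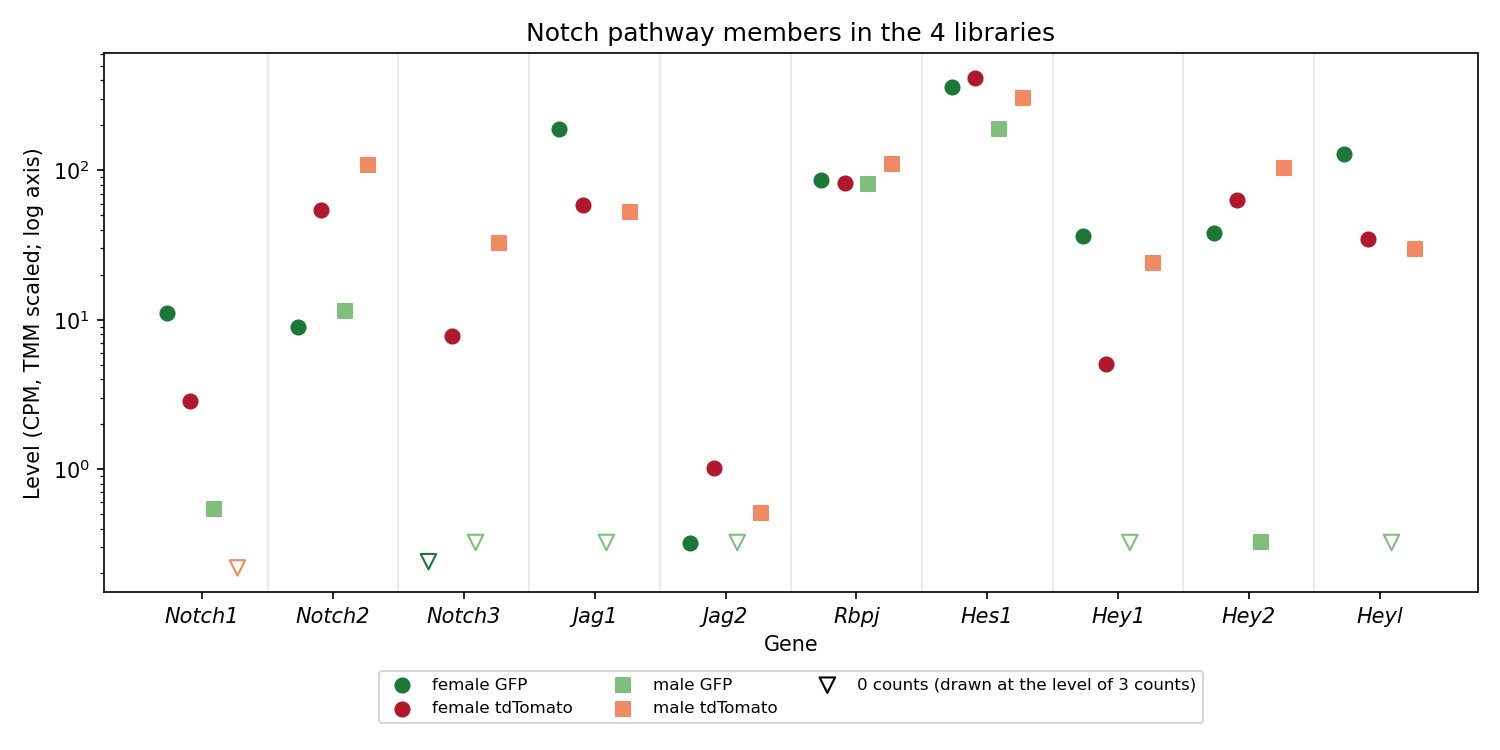
Level of each gene (x) in CPM (y, log axis) in the 4 libraries, 1 point each; open triangles are 0 counts, drawn at the level of 3 counts in that library. Notch2 and Notch3 are low in both GFP libraries, Jag1, Hey1 and Heyl are highest in female GFP and at 0 in male GFP, and Rbpj and Hes1 lie close together in all 4.

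Within the target family, Hes1 took 81.0% of the summed level per kilobase of the longest transcript in female GFP against 89.2% in female tdTomato, and 99.9% in male GFP against 78.6% in male tdTomato. Heyl was next in female GFP, at 9.27%, against 2.38% in female tdTomato. Hey2 was next in both tdTomato libraries, at 7.80% in female tdTomato and 15.3% in male tdTomato. In counts, Hey1 and Heyl had none of 1773 target counts in male GFP. For each, 3 counts, the floor used here, would be 0.169% (upper end of the exact binomial interval 0.208%). With the median transcript Heyl stood above Hey2 in male tdTomato too, at 6.83% against 6.26%, and in female tdTomato, at 6.32% against 3.05%.

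Over the 10 genes, 3 were at least 2-fold lower in GFP cells of both pairs (Notch2, Notch3 and Jag2), where 22.9% of the 15055 tested genes were. Ratios in these counts are log2 ratios with a prior count of 2, and the bound for Jag2 in the male pair was below 2-fold. Notch1 alone was at least 2-fold higher in both pairs, as were 5.17% of tested genes. In the male pair this rested on 5 against 0 counts. Jag1, Hey1 and Heyl were at least 2-fold higher in the female pair and lower in the male pair, as were 11.5% of tested genes, and no gene of the 10 did the reverse, as 7.75% did. Rbpj and Hes1 stayed under 2-fold in both pairs, as 15.9% did. In the female pair 3 genes were at least 2-fold lower (37.8% of tested genes) and 4 higher (22.0%), and in the male pair 7 were lower (50%) and 1 higher (21.5%). The median of the genes' log2 ratios was -0.06 for the female suspension and -5.23 for the male one, beside -0.27 and -1.0 for all tested genes.

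Most of the 0 counts were in male GFP. There 5 of the 10 genes were at 0 (Notch3, Jag1, Jag2, Hey1 and Heyl), as were 23.4% of tested genes. In female GFP Notch3 alone was at 0, as were 12.9% of tested genes, and 6.64% of tested genes shared its place at 0 in both. Of 10 fibroblast markers, 9 were at least 2-fold lower in GFP cells of the male pair, 5 in the female pair and 4 in both, Pdgfra (0 counts in female GFP against 69.3 CPM in female tdTomato, and 0.43 CPM in male GFP against 62.5 CPM in male tdTomato) among them. Their sum was 3932 CPM in female GFP against 3728 CPM in female tdTomato, and 643 CPM in male GFP against 4631 CPM in male tdTomato. The part of fibroblasts and of missed transcripts in the 0 counts was not tested.

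**Figure D4:**
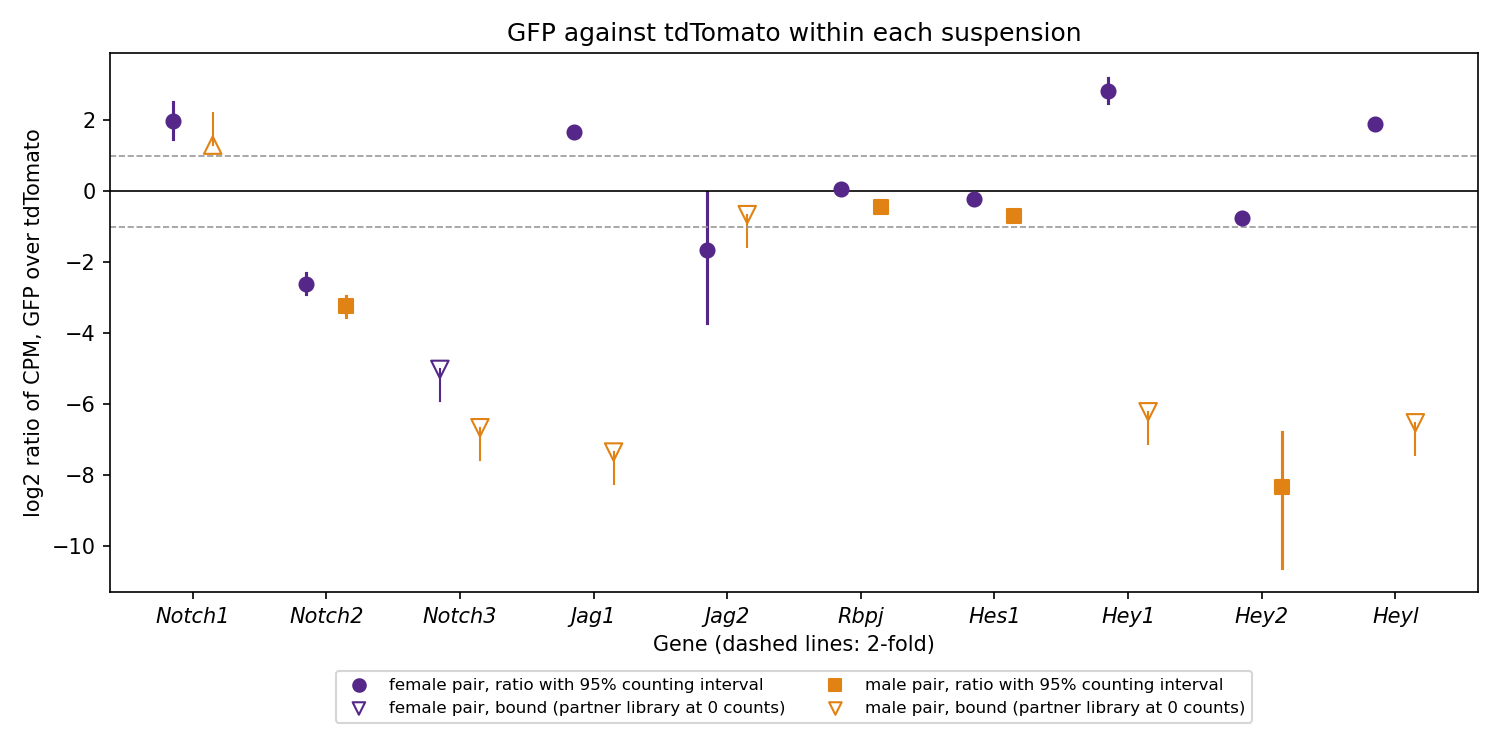
Log2 ratio of CPM, GFP over tdTomato (y), of each gene (x) in the female pair (circles) and the male pair (squares), with 95% counting intervals; open triangles are bounds against 3 counts where one library was at 0, and dashed lines mark 2-fold. Notch2 and Notch3 lie below 0 in both pairs, and Jag1, Hey1 and Heyl above 0 in the female pair and below it in the male pair.

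Tested over both pairs with edgeR at an adjusted p of 0.05, none of the 9 genes that passed the filter was called, and 0 of 15055 genes were (0.0%, smallest adjusted p 0.577). At an unadjusted p under 0.05 the test had 1298 genes (8.62%), Notch3 among them. DESeq2 called 1157 genes (7.69%), 1108 lower in GFP (7.36%) and 49 higher (0.325%), and limma-voom called 0. For Jag1, Heyl and Hey1, whose pairs disagreed, the edgeR log2 fold changes were -3.77, -3.38 and -2.88, each with an adjusted p of 1. With no block they were 0.77, 1.00 and 0.32, and -12.4, -11.6 and -10.5 when female GFP was also left out. Hey1 was at -0.39 with no block and without female tdTomato. Leaving out 1 library with the block kept leaves the other pair alone, with the ratios given above and no test. Log2 fold changes of genes at 0 depend on the prior count and are no bounds.

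**Figure D5:**
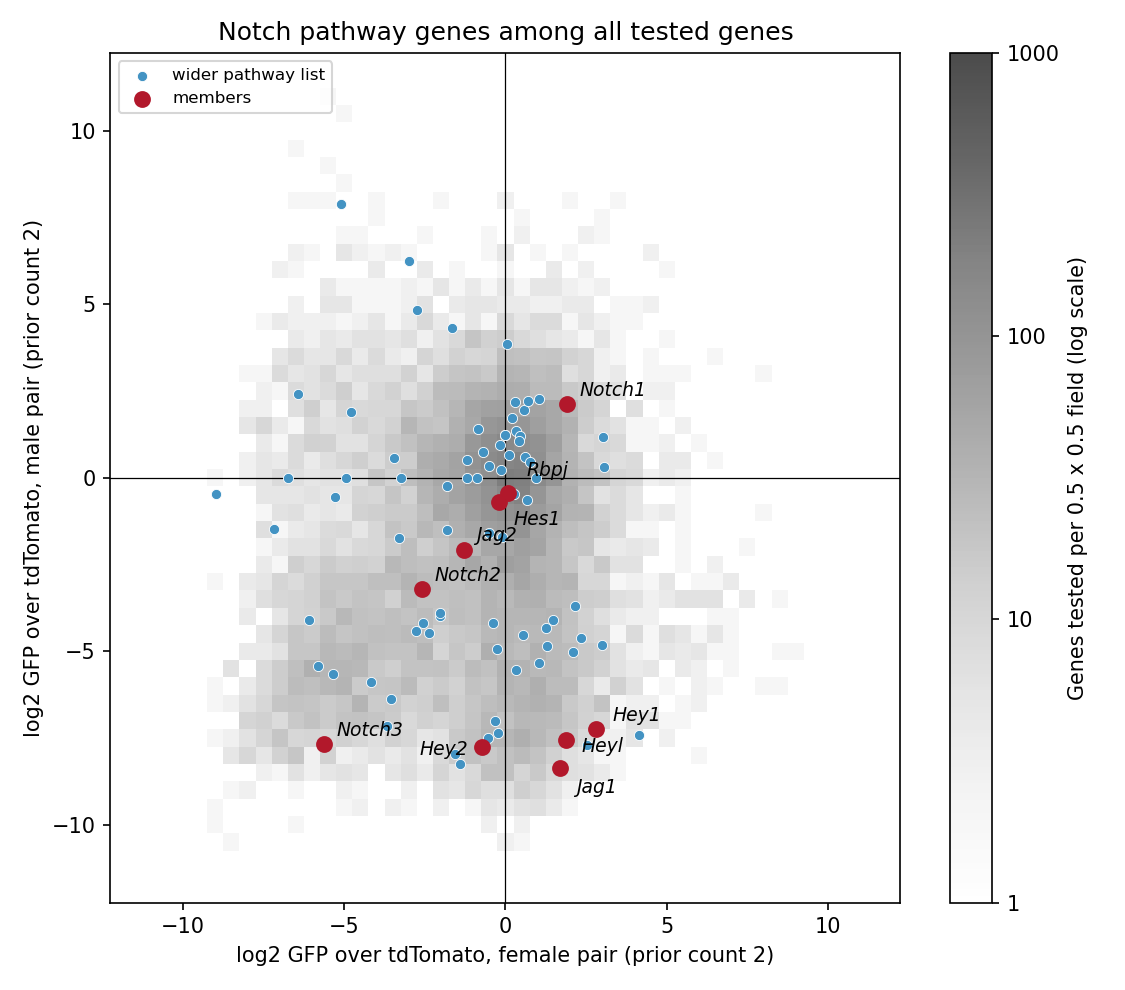
Log2 ratio GFP over tdTomato in the female pair (x) and in the male pair (y), both with a prior count of 2; grey fields give the number of tested genes per field of 0.5 by 0.5 on a log scale, red points the 10 genes and blue points the wider pathway list. The red points spread over the field of all tested genes, with Jag1, Hey1 and Heyl at the lower right and Notch3 at the lower left.

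The sexes were compared within a colour. Here sex cannot be told apart from the suspension, which was 1 female sample or the male pool. Between the tdTomato libraries, Notch1 alone was at least 2-fold higher in female (at least 13.0-fold), where 21.6% of tested genes were. Notch3 and Hey1 were at least 2-fold lower in female (20.6% of tested genes). Notch3 was 4.20-fold lower (3.41 to 5.20), and Hey1 was 4.72-fold lower (3.66 to 6.15). Notch2 was 1.99-fold lower (1.82 to 2.17) and Hey2 1.63-fold lower (1.5 to 1.77) in female tdTomato than in male tdTomato. Jag1 was 1.12-fold higher (1.02 to 1.24) and Heyl 1.17-fold higher (1.02 to 1.33), with intervals close to equality.

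Between the GFP libraries, 6 of the 10 genes were at least 2-fold higher in female, where 40.4% of tested genes were, and none was 2-fold lower, where 27.9% were. Jag1 was at least 587-fold higher in female GFP than in male GFP, Heyl at least 399-fold and Hey1 at least 112-fold. Hey2 was 118-fold higher (40.1 to 573) and Notch1 20.7-fold higher (8.65 to 64.7). The sixth gene was Jag2, whose counts of 4 and 0 support no fold. Hes1 was 1.91-fold higher (1.81 to 2.02), while Rbpj was 1.07-fold higher (0.98 to 1.18) and Notch2 1.28-fold lower (0.98 to 1.69), with intervals that include equality. The edgeR test with colour as a block called 0 genes (0.0%) with a smallest adjusted p of 1, and 262 genes (1.74%) had an unadjusted p under 0.05. DESeq2 called 140 genes (0.93%) and limma-voom 0. No gene of the 10 was called by any of these.

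The wider Notch pathway list held 79 further genes, of which 75 were in the table and 62 passed the filter. At least 2-fold lower in GFP cells of both pairs were 16 of the 75 (22.9% of tested genes), and 2 were higher in both (5.17%). A further 10 were higher in the female pair and lower in the male pair, as Jag1 was (11.5% of tested genes), and 6 the reverse (7.75%). The median of their log2 ratios was -0.39 for the female suspension and -0.47 for the male one, beside -0.27 and -1.0 for all tested genes. These counts and medians cover all 75 genes, including those that failed the filter, unlike the values for tested genes. Of the 62 that passed the filter, the edgeR test called 0, and 5 had an unadjusted p under 0.05 (8.62% of tested genes). DESeq2 called 5, all lower in GFP (7.36% of tested genes), and limma-voom called 0. These 5, named here after their values were seen, were Dll1, Dtx4, Maml3, Rita1 and Ccnd1. Members of small counts named in brackets in what follows were likewise chosen after their values were seen.

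Of the other receptors and ligands, Notch4, a receptor of endothelium, had 89 counts (6.01 CPM) in female tdTomato, 1 in male tdTomato and 0 in both GFP libraries. The endothelial Delta-like ligand Dll4 had 70 counts (4.73 CPM) and the Delta-like protein Dner 251 (17.0 CPM) in female tdTomato, and both had 0 in the other libraries. Dll1, another Delta-like ligand, had 1.69 CPM in female tdTomato, 13.1 CPM in male tdTomato and 0 counts in both GFP libraries. It was at least 7.04-fold lower in female GFP and at least 40.5-fold lower in male GFP. All 4 genes were thus undetected in GFP cells, as Notch3 was. Of all genes at 5 to 10 CPM in female tdTomato, the class of Notch4, 27.7% were at 0 in female GFP. Of those at 10 to 25 CPM, the class of Dner, 19.1% were. Endothelial markers were also low in GFP cells, and they summed to 470 CPM in female tdTomato and 299 CPM in male tdTomato. Of the 4 genes, Dll1 alone had more than 1 count in male tdTomato. The part of endothelial cells in these differences was not tested. Cntn1, a contactin that can bind Notch, had 1, 12, 1 and 56 counts in female GFP and tdTomato and then in male GFP and tdTomato.

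Mfap2 and Mfap5 encode microfibril proteins that can bind Notch receptors or Jagged ligands. Of the GFP libraries, both held Mfap5 RNA and female GFP alone held Mfap2 RNA. Mfap5 had 381 CPM in female GFP against 301 CPM in female tdTomato, and 965 CPM in male GFP against 382 CPM in male tdTomato. It was 1.27-fold higher in GFP cells of the female pair (1.22 to 1.32) and, in the male pair, 2.53-fold higher (2.44 to 2.61), and it is also a gene of the matrix. Mfap2 had 8.0 CPM in female GFP against 3.78 CPM in female tdTomato, and 0 counts in male GFP against 6.32 CPM in male tdTomato.

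Of the enzymes of receptor sugar transfer, 3 passed the filter. All 3 were at least 2-fold higher in the female pair and lower in the male pair, as was Jag1. Of all tested genes 11.5% did the same, and 23.4% were at 0 counts in male GFP. Pofut1, which adds fucose to the receptor, had 64.2 CPM in female GFP against 11.1 CPM in female tdTomato, and 0 counts in male GFP against 32.9 CPM in male tdTomato. It was 5.80-fold higher in GFP cells of the female pair (4.90 to 6.90), whereas in the male pair it was at least 102-fold lower. Poglut1, which adds glucose, was 8.11-fold higher in female GFP (6.92 to 9.56) and 33.0-fold lower in male GFP (17.2 to 72.6) than in the tdTomato partner. Rfng, which extends the fucose, was 2.41-fold higher in female GFP (2.05 to 2.84) and at least 9.46-fold lower in male GFP. Female GFP was the highest and male GFP the lowest library for all 3.

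Of the 16 genes of ligand and receptor uptake, 4 were at least 2-fold lower in both pairs (Mib1, Mib2, Dtx3l and Dtx4) and none was higher in both. Of all tested genes, 22.9% were lower in both and 5.17% higher. The ubiquitin ligase Mib1, which drives ligand uptake, had 19.8 CPM in female GFP against 135 CPM in female tdTomato, and 3.55 CPM in male GFP against 78.6 CPM in male tdTomato. It was 6.84-fold lower in GFP cells of the female pair (5.99 to 7.84) and 22.2-fold lower in the male pair (15.7 to 32.4). Epn2, an adaptor of endocytosis, had 0 counts in female GFP against 80.6 CPM in female tdTomato, and 71.0 CPM in male GFP against 98.0 CPM in male tdTomato. The ubiquitin ligase Nedd4 was 1.63-fold lower in female GFP (1.57 to 1.69) and 1.68-fold higher in male GFP (1.63 to 1.74).

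Among 10 cleavage genes, 3 were at least 2-fold lower in GFP cells of both pairs (Adam10, Ncstn and Psenen), as were 22.9% of tested genes. In both pairs 1 was higher, as were 5.17% of tested genes. That one was Adam17, a protease of the receptor's outer part, with 94.1 CPM in female GFP against 46.0 CPM in female tdTomato and 46.7 CPM in male GFP against 9.52 CPM in male tdTomato. Of the gamma-secretase subunits, Psenen was 3.55-fold lower in female GFP (3.06 to 4.13) and 2.88-fold lower in male GFP (2.43 to 3.42). The catalytic subunit Psen2 had 20.0 CPM in female GFP against 19.2 CPM in female tdTomato, and 81.3 CPM in male GFP against 5.45 CPM in male tdTomato.

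The most abundant co-activators and co-repressors were detected in every library. Of 8 co-activators, 3 were at least 2-fold lower in both pairs (Maml1, Maml3 and Kat2b), as were 22.9% of tested genes. None was higher in both, where 5.17% of tested genes were. The acetyltransferase Crebbp had 349 CPM in female GFP against 183 CPM in female tdTomato, and 208 CPM in male GFP against 207 CPM in male tdTomato. Its relative Ep300 was 1.13-fold lower in female GFP (1.03 to 1.25) and 1.92-fold higher in male GFP (1.80 to 2.06). Snw1, which binds the receptor's intracellular part, was 3.15-fold lower in female GFP (2.70 to 3.68) and 20.4-fold higher in male GFP (17.2 to 24.4).

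Of 15 co-repressors, 3 were at least 2-fold lower in GFP cells of both pairs (Ctbp2, Cir1 and Rita1), as were 22.9% of tested genes. In both pairs 1 was higher (Spen), as were 5.17% of tested genes. Kdm5a, a histone demethylase, was 1.64-fold higher in female GFP (1.54 to 1.74) and 4.66-fold higher in male GFP (4.45 to 4.89). Ctbp1 was 1.15-fold higher in female GFP (1.05 to 1.26) and 3.31-fold higher in male GFP (2.86 to 3.84). Ncor1 was 1.10-fold lower in female GFP (1.04 to 1.17) and 1.16-fold higher in male GFP (1.09 to 1.23), close to the even levels of Rbpj.

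Among 13 other targets and partners in the table, 1 was at least 2-fold lower in both pairs (Ccnd1), where 22.9% of tested genes were. None was higher in both, where 5.17% of tested genes were. Id2, an inhibitor of helix-loop-helix factors, had 2804 CPM in female GFP against 1642 CPM in female tdTomato, and 1946 CPM in male GFP against 1426 CPM in male tdTomato. Its relatives Id1 and Id3 were 1.52-fold higher (1.45 to 1.59) and 1.59-fold higher (1.55 to 1.64) in female GFP, and in male GFP Id1 was 1.52-fold higher (1.44 to 1.60) and Id3 1.56-fold lower (1.5 to 1.62). These Id genes answer to other signals as well. Hes6, a relative of Hes1, had 1, 26, 317 and 4 counts in female GFP and tdTomato and then in male GFP and tdTomato, the opposite order of Jag1 within each sex. Nrarp, a feedback target of Notch, had 20 counts in female tdTomato and 0 in the other libraries, and Hes5 and Hes7 had fewer than 10 counts in each library.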

How the data were processed

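RNA of 4 libraries (SMART-Seq v4, oligo(dT) primer, PCR, transposase fragments, no molecular identifiers and no strand, per the labels' protocols) was analysed from 1 table. The authors deposited expected counts, estimates of the reads of each gene that can hold decimals and are not scaled. HISAT2, StringTie, fastp and the build GRCm39 are named, without roles, per the submitters' processing notes. What counted the reads, and on which annotation release, was not given in the sources used here.

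Counts were rounded. Levels are CPM after TMM scaling. Folds between 2 libraries carry exact 95% binomial intervals or bounds by 3 counts, and have no test. The intervals cover counting error only. The bounds set the library at 0 to 3 counts and take the other library's count without error. filterByExpr (minimum of 10 counts) kept 15055 genes. Colours were tested with edgeR's quasi-likelihood test (4.0.16, R 4.3.3), with the suspension as a block and 1 residual degree of freedom, and sexes with colour as a block. The p-values are Benjamini-Hochberg adjusted at 0.05. For the colours they measure the spread between 2 suspensions. For the sexes they measure the spread between the 2 colours of the same animals, so they only describe these suspensions. The GFP and tdTomato libraries of a suspension are paired because they came from the same animals. DESeq2 1.42.0, limma-voom (3.58.1), other scalings, no filter, no block, and each library left out with no block were tried. The scripts were tested on simulated data.

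Symbols, transcript lengths and overlapping genes came from an annotation of an earlier build (GRCm38), matched by identifier for 76.4% of genes. Start-site windows are RefSeq's. Of the wider list, the text names receptors and ligands with at least 10 counts in any library, Hes5, Hes6, Hes7, Nrarp and the 3 most abundant genes of each other group. The genes and lists were chosen with earlier results of these data known.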

Additional observations from a re-analysis of the deposited data

Results flagged for a closer look

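Jag1, Hey1 and Heyl differed between the colours in opposite directions in the 2 suspensions, each with 1 library for each side. The log2 ratio of GFP over tdTomato was 1.68 in females and -8.37 in males for Jag1, 2.80 in females and -7.24 in males for Hey1, and 1.89 in females and -7.55 in males for Heyl. Ratios have a prior count of 2, and since male GFP was at 0 counts for all 3 genes, the negative values depend on that prior. Of all tested genes, 11.5% had such opposite signs at 2-fold or more. The difference between the pairs was not tested, because each combination of sex and colour is 1 library.

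Hey1 and Hey2 differed between the sexes in opposite directions in the 2 colours. The log2 ratio of female over male was 7.84 in GFP and -2.20 in tdTomato for Hey1, and 6.31 in GFP and -0.70 in tdTomato for Hey2. This difference was not tested either.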

How the results depend on the processing

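In the colour comparison the number of genes called was 0 with edgeR under every scaling, without the filter, without the replicate block and with no block and any 1 library left out (0 to 0), and 1157 with DESeq2, which called 1 of the 10 genes, Notch3 (log2 fold change -9.71). In the sex comparison it was 0 except for 2 genes without the filter and 140 with DESeq2, and 0 with no block and any 1 library left out (0 to 0). With no replicate block the fitted log2 fold change of GFP over tdTomato was 0.77 for Jag1, 0.32 for Hey1 and 1.00 for Heyl, opposite to the fit with the block, and the cause was not tested. The fits that left out 1 library also dropped the block, which would leave no residual degree of freedom, so both choices changed together. Their values ran from -1.30 to 9.13 for Notch1, -3.40 to -2.39 for Notch2, -11.6 to -9.56 for Notch3, -12.4 to 1.79 for Jag1, -0.39 to 0.0475 for Rbpj, -0.85 to 0.0275 for Hes1, -10.5 to 1.86 for Hey1, -7.90 to -1.12 for Hey2 and -11.6 to 2.03 for Heyl. The number of the 10 genes at least 2-fold lower in GFP was 3 in both pairs together and in the female pair alone and 7 in the male pair alone, and the number higher was 1, 4 and 1; these single-pair counts were added after seeing the data, as were the family shares by median transcript. RLE size factors moved the median log2 ratio of all genes by 0.12 in the female pair, 0.21 in the male pair and -0.12 between the sexes in GFP, and library totals alone moved it by -0.21 and -0.20 in the pairs; no ratio of 2-fold or more changed its sign under another scaling. For the 10 genes, 160 ratios of 2 libraries, of any size, were taken under other scalings and a prior count of 0.5. Of these, 133 moved by less than their counting error and 27 by more. The median transcript moved 31 of 40 levels per kilobase and 13 of 32 shares. Male GFP, with the fewest counts and genes, limits every comparison it enters.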

Other observations

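The following genes of the wider list fall outside the naming rule and were chosen after their values were seen. Efnb2, an ephrin ligand of arterial cells, had 7.68 CPM in female GFP against 52.0 CPM in female tdTomato, and 620.0 CPM in male GFP against 21.7 CPM in male tdTomato. It was 6.77-fold lower in GFP cells of the female pair (5.47 to 8.46) and, in the male pair, 28.6-fold higher (25.5 to 32.3), against the direction of Jag1 in both. Bhlhe40, a repressor of the same protein class as the Hey genes, had 171 CPM in female GFP against 248 CPM in female tdTomato, and 1.61 CPM in male GFP against 322 CPM in male tdTomato. Numb, an inhibitor of Notch, had 113 CPM in female GFP against 26.2 CPM in female tdTomato, and 1 count in male GFP against 117 counts in male tdTomato. Each value is 1 library, and none of these genes was called by edgeR or DESeq2.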
